A study of Mus musculus with 4 samples.

Results

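This account follows 45 genes of the endoplasmic reticulum (ER) in sorted mouse beta cells: lumenal chaperones, enzymes that form disulfide bonds, sensors of unfolded proteins and parts of the degradation machinery. They were chosen by name from a list of 47, and 45 of those names had a row among the 31017 gene names of the count tables. The name Crelf had no row, and Vimp is an older symbol of Selenos, which is given among the further ER genes. The study measured polyA RNA in 4 bulk libraries of beta cells from islets of 10-week-old wild type C57BL/6J male mice, without any treatment. The islets had been digested, hand-picked and cultured overnight, then dissociated and sorted by flow cytometry into CD63 high and CD63 low cells, with 2 libraries each. CD63 is a tetraspanin found in the membranes of endosomes and granules, and how beta cells with much of it differ from those with little is the question of the comparison. The labels name no gate besides CD63 and do not say how many mice gave each library. The p-values therefore measure only the spread between these libraries, which may be technical.

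Proinsulin enters the ER as an unfolded chain and needs disulfide bonds before it can leave. BiP (the product of Hspa5) and its partners hold such chains, disulfide isomerases and oxidases form the bonds, and chains that fail are sent to the proteasome by ER-associated degradation. When unfolded chains build up, the sensors IRE1, ATF6 and PERK start the unfolded protein response, in which spliced XBP1 and cleaved ATF6 raise the transcription of many of these same genes. Splicing of Xbp1 and cleavage of ATF6 cannot be read from counts per gene.

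Total counts were 29249270 to 35003307 per library, and the insulin genes Ins1 and Ins2 took 48.7% to 56.4% of them. The transcript of the sorting marker, Cd63, was higher in CD63 high cells, by 0.81 on the log2 scale (SE 0.19, edgeR adjusted p 0.0484). The labels call all cells beta cells, yet transcripts of other cell types were higher in the CD63 high libraries. A gene is named as called at an edgeR adjusted p under 0.05. That held for 2.5% of all tested genes as higher and for 0.287% as lower in CD63 high cells. Of 15 macrophage markers, all tested, 13 were called higher. The summed level of the 15 was 222 and 696 CPM (counts scaled to a common library total) against 28.98 and 52.2 CPM. Of 20 acinar markers 19 were tested and 6 called higher (1185 and 1826 against 33.6 and 497 CPM, Amy2a5 at 0 in all libraries). Of 11 alpha cell markers 9 were tested and 3 called higher (5616 and 5817 against 467 and 654 CPM). Of 5 delta cell markers 4 were tested and 3 called higher (497 and 870 against 103 and 154 CPM). Of 5 gamma cell markers 4 were tested and all 4 called higher (2446 and 3918 against 519 and 320 CPM). Of 11 duct markers 8 were tested and 1 called higher (3349 and 1883 against 1117 and 1296 CPM, Cftr and Mmp7 at 0). Only 3 of 7 endothelial, 2 of 8 stellate and fibroblast and 1 of 6 B and plasma cell markers were tested. None of these was called by edgeR, and the largest sum of these lists in any library was 7.98 CPM. Of 10 beta cell markers, all tested, 3 were called lower in CD63 high cells. The summed beta cell markers overlapped between the groups, at 551347 and 587175 against 622133 and 537654 CPM. Such cells of other types also express ER chaperones, and their part in the values below was not tested. In bulk libraries, fewer cells of a type and less RNA per cell cannot be told apart.

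Many of these genes are known to share a promoter element, and it is shown here because the genes that hold it are compared as a set further on. The ER stress response element (ERSE) is CCAAT, then 9 bases of any kind, then CCACG, in which the CCAAT part is bound by NF-Y and the CCACG part by ATF6. Promoter windows from RefSeq (GRCm38.p6), from 250 bases before to 50 bases after a gene's start, were at hand for 40 of the 45 members. The windows of Hyou1, Sil1, Manf, Atf6 and Derl1 were not used here. On either strand, 10 of the 40 members (25.0%) held an exact ERSE, against 39 of all 32851 windows (0.119%), or 37 of 27025 genes (0.137%). Of those 37 genes, 17 were expressed enough to be tested, and 10 of the 17 are these members. The shorter element ERSE-II, which is ATTGG, any base, then CCACG, was in the windows of 2 members, Herpud1 and Dnajb11, and in 0.037% of all windows. The element UPRE, TGACGTGG, was also in the windows of 2 members, Txndc5 and Txndc11, and in 0.676% of all windows. No match was found in the windows of 26 members, which says only that these exact letters are not there. The matches are given 5′ to 3′ on the strand that carries CCAAT or ATTGG first, with the fixed letters of the element in capitals.
Hspa5 (chr2:34772025-34772043, + strand): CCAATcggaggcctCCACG
Hsp90b1 (chr10:86705638-86705656, - strand): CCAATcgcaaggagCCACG
Hsp90b1 (chr10:86705533-86705551, + strand): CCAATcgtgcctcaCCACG
Dnajc3 (chr14:118937827-118937845, + strand): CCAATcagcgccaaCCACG
Calr (chr8:84847075-84847093, + strand): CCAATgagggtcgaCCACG
Canx (chr11:50325800-50325818, - strand): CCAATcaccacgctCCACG
Pdia6 (chr12:17266491-17266509, + strand): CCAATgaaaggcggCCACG
Ero1lb (chr13:12565682-12565700, - strand): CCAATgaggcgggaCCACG
Creld2 (chr15:88819520-88819538, - strand): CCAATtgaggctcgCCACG
Syvn1 (chr19:6046532-6046550, + strand): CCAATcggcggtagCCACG
Derl3 (chr10:75893242-75893260, - strand): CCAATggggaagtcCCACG
Dnajb11 (chr16:22857852-22857862, + strand): ATTGGcCCACG
Herpud1 (chr8:94386377-94386387, + strand): ATTGGgCCACG

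The 250 bases before the RefSeq starts of Hspa5 and Hsp90b1, on the strand of each gene, show these elements in place, with the ERSE matches in capitals. The gene models used for the counts begin further upstream, at 34771970 for Hspa5 and 86705509 for Hsp90b1. Part of each stretch therefore lies inside the gene spans given below. Hsp90b1 alone among the members held 2 exact matches, the second on the strand opposite to the gene. Stretches close to the element but not equal to it were not counted in either gene.
Hspa5 (chr2:34771840-34772089, + strand): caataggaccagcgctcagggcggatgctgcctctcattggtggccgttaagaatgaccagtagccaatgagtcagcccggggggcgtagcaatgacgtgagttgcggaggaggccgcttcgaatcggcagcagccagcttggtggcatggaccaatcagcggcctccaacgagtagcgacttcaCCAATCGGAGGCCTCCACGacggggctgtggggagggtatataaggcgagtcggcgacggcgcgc
Hsp90b1 (chr10:86705445-86705694, - strand): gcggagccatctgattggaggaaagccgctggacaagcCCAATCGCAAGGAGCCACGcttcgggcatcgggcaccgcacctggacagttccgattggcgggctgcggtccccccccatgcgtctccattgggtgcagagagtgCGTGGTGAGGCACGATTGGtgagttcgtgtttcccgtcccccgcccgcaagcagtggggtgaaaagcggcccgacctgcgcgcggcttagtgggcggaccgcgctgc

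None of the 45 members differed between CD63 high and CD63 low cells at an adjusted p under 0.05. All 45 passed the filter on low counts and were tested by edgeR's quasi-likelihood method, with p-values adjusted after Benjamini and Hochberg over 13241 genes. That test called 2.79% of all genes, 2.5% as higher and 0.287% as lower in CD63 high cells. The smallest adjusted p among the members was 0.142. At an unadjusted p under 0.05 there were 8 members, 5 higher and 3 lower in CD63 high cells. Of all tested genes 14.9% were at that level, 8.95% higher and 5.96% lower. DESeq2 (5.18% of all genes called) and limma-voom (2.14%) called none of the members either. Nor did RLE size factors (3.03%), library totals as the scaling (0.506%), a minimum mean of 1 CPM (3.14%), a robust fit (2.19%), a replicate block (4.65%), or leaving out CD63 high replicate 1 (3.72%) or 2 (3.25%). Members were called without a filter on low counts (Mbtps1, 5.12%), without either CD63 low library, as given under the genes, and with a crossed pairing of the libraries chosen after seeing the data (5 members, 7.11%). The median log2 fold change of the members, CD63 high over CD63 low, was 0.10, with 25 members above 0 and 20 below, beside a median of -0.01 over all tested genes, of which 48.6% were above 0. For 39 of the 45 the 95% interval of the fold change lay within 2-fold in either direction, as it did for 49.3% of all tested genes. The exceptions were Prdx4, Fkbp11, Mbtps1, Mbtps2, Edem1 and Derl3. Intervals are narrower at higher counts. A mean of at least 10 CPM was reached by 43 of the 45 members and by 6957 of the 13241 tested genes. Over all genes at that level the median SE was 0.23 and the median absolute log2 fold change 0.23. For the 45 members these were 0.21 and 0.23. The libraries of both groups did not overlap for 15 members that were higher and 5 that were lower in CD63 high cells, 44.4% of the members. Of all tested genes 46.0% did not overlap, 23.8% higher and 22.2% lower.

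**Figure D1:**
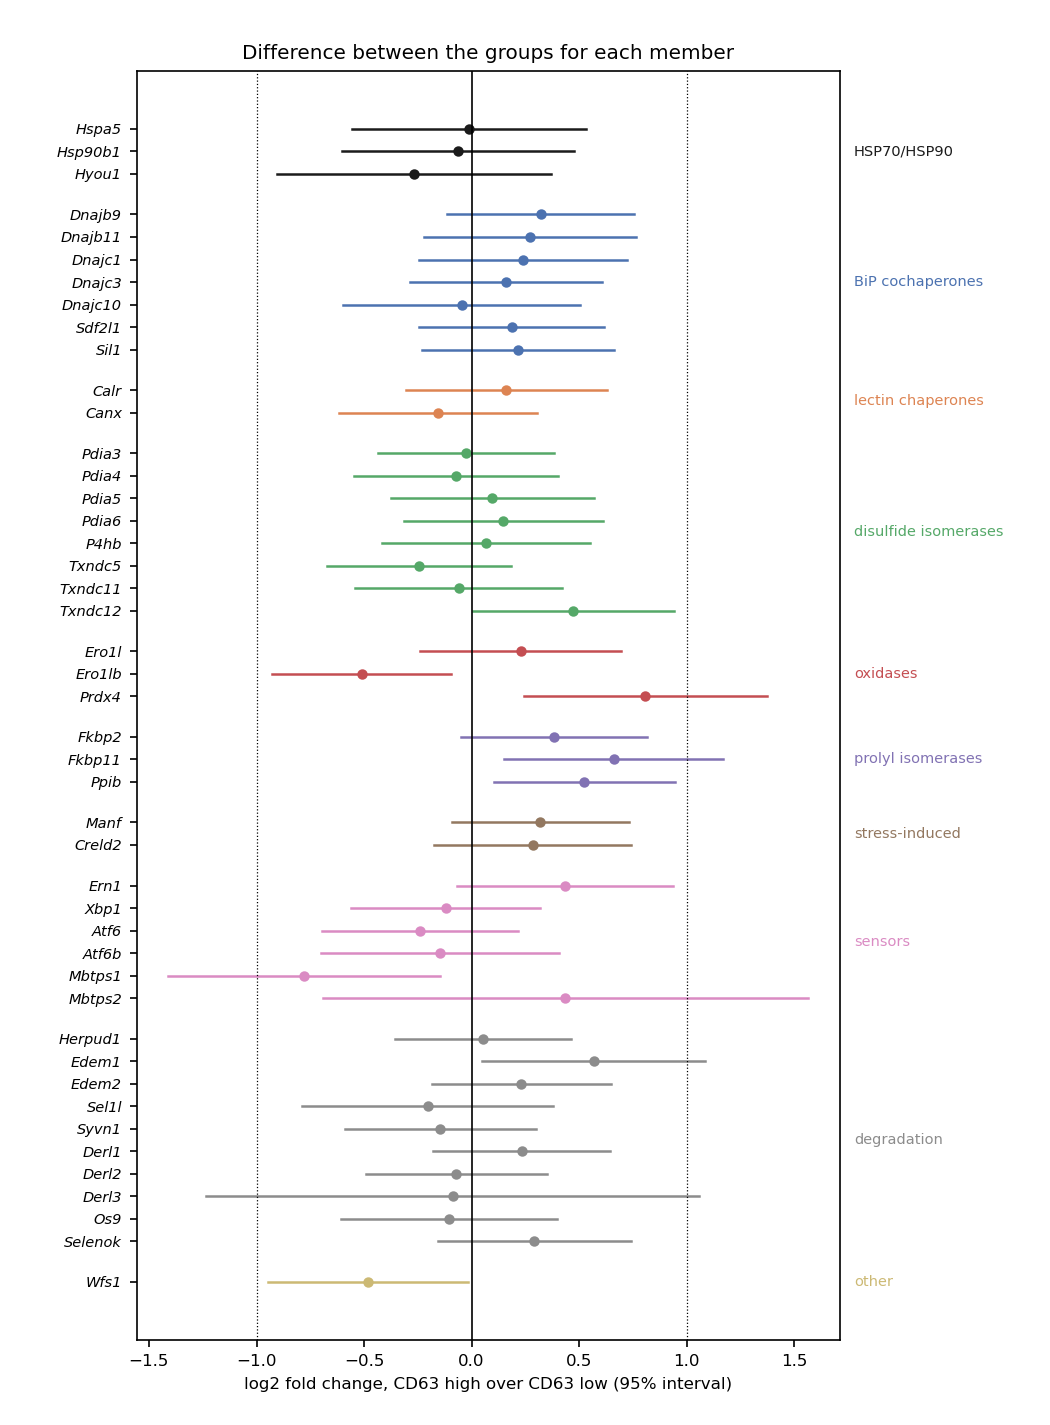
Log2 fold change, CD63 high over CD63 low, of each of the 45 members (points) with its 95% interval from edgeR's quasi-likelihood fit (lines), grouped and coloured by role, with dotted lines at 2-fold. The points run from -0.78 (Mbtps1) to 0.81 (Prdx4), and 39 of the 45 intervals stay between the dotted lines.

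The central chaperones of the lumen overlapped between the groups, each with a log2 fold change near or below 0. Hspa5, which encodes BiP (chromosome 2, 34771970 to 34777547, mm10), stood at 1902 and 1456 TMM-scaled CPM in CD63 high replicates 1 and 2 and at 1325 and 2062 CPM in CD63 low replicates 1 and 2. The highest and the lowest of these values both belonged to CD63 low cells. Its log2 fold change was -0.01 (SE 0.25, 95% interval -0.56 to 0.53, edgeR adjusted p 0.992). Hsp90b1, which encodes the chaperone GRP94 (chromosome 10, 86690209 to 86705509), was at 882 and 634 CPM in CD63 high and 639 and 946 CPM in CD63 low cells, again with the groups overlapping. Its log2 fold change was -0.06 (95% interval -0.60 to 0.48, edgeR adjusted p 0.946). Hyou1, which encodes a large HSP70-like protein that also exchanges nucleotide on BiP, was lowest in CD63 high replicate 2, at 54.1 CPM against 80.4 to 108 CPM elsewhere (log2 fold change -0.27, SE 0.29). Without that library its log2 fold change was 0.12.

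The cochaperones of BiP and the factors that load it lay slightly above 0 on the log2 scale, 6 of 7 of them, with none called. Dnajb9, a J-domain protein that steers misfolded chains and also restrains the sensor IRE1, was at 193 and 211 CPM in CD63 high and 146 and 177 CPM in CD63 low cells (log2 fold change 0.32, SE 0.20, edgeR adjusted p 0.502). Both CD63 high values lay above both CD63 low values. Dnajb11, another J-domain partner of BiP, was at 186 and 139 against 116 and 152 CPM, and its groups overlapped (0.27, SE 0.22). Sdf2l1, which works with Dnajb11, was at 372 and 361 against 291 and 353 CPM (0.19, SE 0.19). Log2 fold changes of 0.24, 0.22, 0.16 and -0.05 were found for Dnajc1, a membrane-bound J-domain protein, for the nucleotide exchange factor Sil1, for Dnajc3 (p58IPK) and for the disulfide reductase Dnajc10.

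The lectin chaperones, which hold glycoproteins while they fold, pointed in opposite directions within their error. Calr, calreticulin, was at 791 and 630.1 CPM in CD63 high and 559 and 712 CPM in CD63 low cells (log2 fold change 0.16, SE 0.21, edgeR adjusted p 0.807). Canx, its membrane-bound relative calnexin, was at 316 and 300.2 against 293 and 394 CPM (-0.16, SE 0.21). Both sets of values overlapped between the groups.

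Of the 8 protein disulfide isomerases none was called, 6 had overlapping groups, and 4 lay above and 4 below 0 on the log2 scale. Pdia3, the isomerase that works with calnexin and calreticulin (chromosome 2, 121413775 to 121438687), was at 1264 and 1234 CPM in CD63 high and 1261 and 1280 CPM in CD63 low cells. These 4 values were nearly equal, and the 95% interval of the log2 fold change of -0.02 was -0.43 to 0.38. P4hb, the classical protein disulfide isomerase, was at 1156 and 975 against 849 and 1186 CPM, with overlapping groups (0.07, SE 0.22). Pdia4, Pdia5, Pdia6 and Txndc11 had log2 fold changes of -0.07, 0.10, 0.15 and -0.06. Txndc5, an isomerase of the thioredoxin family, was lower in both CD63 high libraries, at 177 and 159 against 185 and 213 CPM (-0.24, SE 0.19, edgeR adjusted p 0.635). Txndc12, a small thioredoxin-like protein of the lumen, was higher in both, at 36.7 and 41.3 against 29.8 and 26.4 CPM (0.47, SE 0.21). Its unadjusted p was 0.0472 and its edgeR adjusted p 0.327.

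The oxidases that feed oxidising equivalents to the isomerases split. Ero1lb, the beta-cell-enriched ER oxidase also called Ero1b (chromosome 13, 12565874 to 12611396), was at 547 and 610 CPM in CD63 high and 821 and 828 CPM in CD63 low cells. The CD63 low libraries agree within 1.01-fold, and both lay above the CD63 high libraries. The level was 1.43-fold higher in CD63 low cells (log2 fold change -0.51, SE 0.19, 95% interval -0.93 to -0.10), with an unadjusted p of 0.0206 and an edgeR adjusted p of 0.215. Its relative Ero1l, or Ero1a, which is also induced by low oxygen, was at 51.7 and 55.04 against 39.3 and 51.8 CPM, so its groups overlapped (0.23, SE 0.21). Prdx4, the ER peroxiredoxin that uses hydrogen peroxide to oxidise the isomerases (chromosome X, 155323918 to 155340754), had the smallest p of all members. It was at 22.7 and 17.7 CPM in CD63 high and 12.6 and 10.6 CPM in CD63 low cells, with no overlap. The level was 1.75-fold higher in the CD63 high libraries (log2 fold change 0.81, SE 0.26, 95% interval 0.24 to 1.37). The difference was not called, with an unadjusted edgeR p of 0.00950 and an adjusted p of 0.142. 

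All 3 peptidyl-prolyl isomerases of the list, which turn proline bonds during folding, were higher in both CD63 high libraries, and none was called. Of all tested genes 23.8% were higher without overlap. Fkbp11 was at 127 and 89.6 CPM in CD63 high and 60.0 and 76.9 CPM in CD63 low cells (log2 fold change 0.66, SE 0.23, edgeR adjusted p 0.189). The gap between the groups, from 76.9 to 89.6 CPM, was smaller than the gap between the CD63 high libraries. Ppib, cyclophilin B, was at 80.6 and 76.8 against 55.2 and 54.2 CPM, with libraries of 1 group close together (0.52, SE 0.19, unadjusted p 0.0193, edgeR adjusted p 0.207). Fkbp2 was at 233 and 198 against 175 and 155 CPM (0.38, SE 0.20, edgeR adjusted p 0.402). The direction was not shared by all relatives among the further ER genes. Fkbp9 was lower in both CD63 high libraries, at 150.8 and 175.5 against 198.6 and 230.2 CPM (-0.39, SE 0.20). Fkbp14 was at -0.19 and Fkbp7, with 33 to 47 counts per library, at 0.43. Of the exonic bases of Ppib, 25.0% are shared with Snx22 on the opposite strand, which had 0 to 9 counts per library.

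Manf and Creld2 encode soluble ER proteins that are induced by ER stress and can be secreted, and neither was called. Manf, mesencephalic astrocyte-derived neurotrophic factor, was at 413 and 426 CPM in CD63 high and 346 and 326 CPM in CD63 low cells, without overlap (log2 fold change 0.32, SE 0.19, edgeR adjusted p 0.479). Creld2 was at 193 and 161 against 129 and 162 CPM, with overlapping groups (0.28, SE 0.21).

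Among the sensors and the proteases that activate them, Ern1, which encodes IRE1 alpha, was at 35.8 and 28.3 CPM in CD63 high and 22.1 and 25.3 CPM in CD63 low cells (log2 fold change 0.44, SE 0.23, edgeR adjusted p 0.417). Its target Xbp1 was at 397 and 482 against 511 and 444 CPM, with overlapping groups (-0.12, SE 0.20). Atf6 was at 35.4 and 30.9 against 38.4 and 40.0 CPM, and Atf6b, its relative, at 64.9 and 56.5 against 50.6 and 83.7 CPM (-0.24 and -0.15). The Golgi proteases that cut ATF6 differed in level. Mbtps1, site-1 protease (chromosome 8, 119508156 to 119558735), was at 31.6 and 23.4 CPM in CD63 high and 34.1 and 60.2 CPM in CD63 low cells. The difference was carried mostly by CD63 low replicate 2, which was 1.77-fold above CD63 low replicate 1. Its log2 fold change was -0.78 (SE 0.29, 95% interval -1.41 to -0.15, edgeR adjusted p 0.215), -0.29 without CD63 low replicate 2 and -1.13 without CD63 low replicate 1. In that last setting, which called 5.5% of all genes, edgeR called it lower with an adjusted p of 0.00453. Mbtps2, site-2 protease, had 80 to 159 counts per library and stood at 2.55 and 5.74 against 4.09 and 2.05 CPM, with overlapping groups (0.44, SE 0.51). Yy2 lies in the same stretch as 28.4% of its exonic bases on the same strand, so reads there count for neither gene.

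The genes of ER-associated degradation centred on 0, with a median log2 fold change of -0.01 over 10 members and none called. Edem1, a mannosidase-like protein that marks misfolded glycoproteins (chromosome 6, 108828641 to 108859356), was at 226 and 184 CPM in CD63 high and 110 and 166 CPM in CD63 low cells. It did not overlap between the groups, and CD63 low replicate 1 was the lowest library (log2 fold change 0.57, SE 0.23, 95% interval 0.05 to 1.09, edgeR adjusted p 0.285). Without CD63 low replicate 2, where edgeR called 3.77% of all genes, its log2 fold change was 0.91 and its adjusted p 0.0342, and without CD63 low replicate 1 the log2 fold change was 0.30. Edem2 had 221 and 212 against 174 and 195 CPM (0.23, SE 0.19). Selenok, a selenoprotein of the ER membrane, was at 343 and 424 against 338 and 289 CPM (0.29, SE 0.20). Herpud1, a classical target of the response that scaffolds the degradation complex, was almost level, at 401 and 426 against 394 and 402 CPM (0.05, SE 0.19, 95% interval -0.36 to 0.46). The ubiquitin ligase Syvn1 (HRD1), its partner Sel1l and the lectin Os9 had log2 fold changes of -0.15, -0.20 and -0.11. The derlins, membrane proteins of the same complex, were at 0.23 (Derl1), -0.07 (Derl2) and -0.09 (Derl3). Derl3 had 54 to 212 counts per library, and its 95% interval of -1.24 to 1.06 leaves room for a 2-fold difference in either direction.

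Wfs1, wolframin, an ER membrane protein whose loss causes diabetes in Wolfram syndrome, was lower in both CD63 high libraries. It was at 114 and 102 CPM in CD63 high and 129 and 172 CPM in CD63 low cells (log2 fold change -0.48, SE 0.21, 95% interval -0.94 to -0.02). The unadjusted p was 0.0441 and the edgeR adjusted p 0.319. Mbtps1, Ero1lb and Wfs1 were the 3 members with an unadjusted p under 0.05 that were lower in CD63 high cells, and Prdx4, Fkbp11, Ppib, Edem1 and Txndc12 the 5 that were higher. Since the groups of these 8 do not overlap, leaving out a library leaves their direction as it is, and only the size can move. For Ppib, Txndc12 and Ero1lb the value moved the least, between 0.49 and 0.56, between 0.39 and 0.56 and between -0.59 and -0.44.

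**Figure D2:**
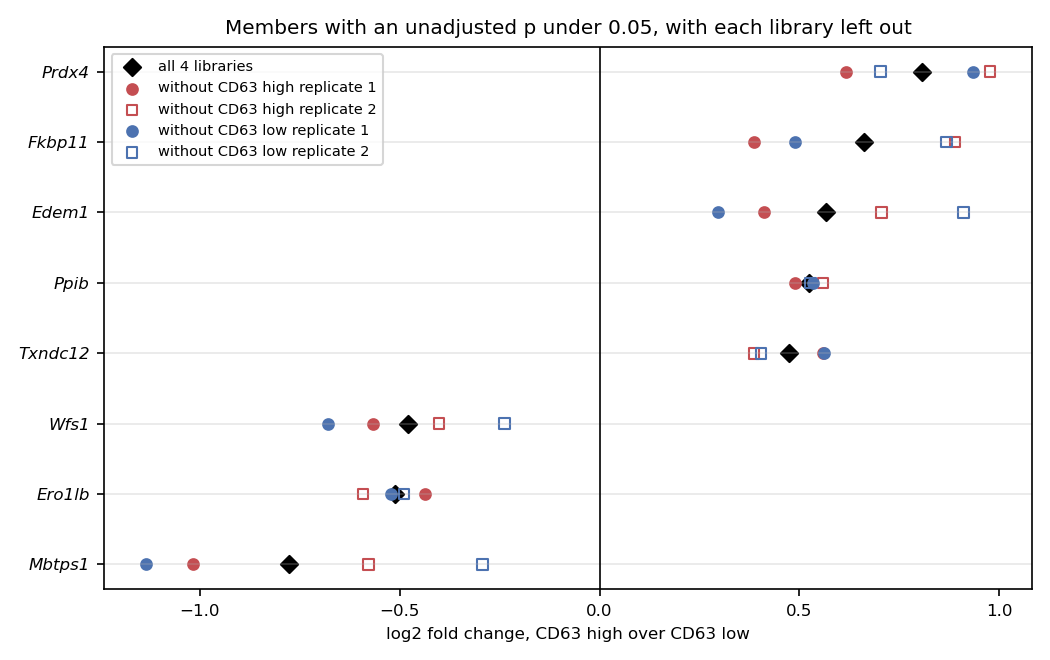
Log2 fold change, CD63 high over CD63 low, of the 8 members with an unadjusted p under 0.05, from edgeR with all 4 libraries (black diamonds) and with each library left out (coloured symbols). Mbtps1 moves the most, from -1.13 to -0.29, and Ppib the least.

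The other ER genes of the same pathways were read from the same fit. Of 89 with a row, 81 were tested, edgeR, DESeq2 and limma-voom called none, and 4 had an unadjusted edgeR p under 0.05 (2 higher, 2 lower). Of all tested genes 14.9% were at that level, 8.95% higher and 5.96% lower, a larger share than among these 81. The median log2 fold change of the 81 was 0.01. The smallest p belonged to Erp29, a chaperone of the disulfide isomerase family, at 111 and 96.7 CPM in CD63 high cells and 72.6 and 65.1 CPM in the others, without overlap. Its log2 fold change was 0.59 (SE 0.20, edgeR adjusted p 0.163). Next were Erlin2 and Svip, a membrane scaffold and a small inhibitor of degradation, both lower in CD63 high cells (-0.53 and -0.50, edgeR adjusted p 0.283 and 0.293). The ER membrane transcription factor Creb3 followed (0.44, edgeR adjusted p 0.303). Eif2ak3, which encodes the sensor PERK, was at 39.0 and 23.8 against 21.98 and 49.1 CPM (-0.18, SE 0.36). Selenos, listed also as Vimp, was at 247 and 255 against 229 and 204 CPM (0.21, SE 0.19).

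The spread between libraries of the same group had a common shape. It was picked out from these same values, so its share among the members may be raised by that choice. Members that move together are not independent counts, and the difference from all genes was not tested. CD63 high replicate 1 was above replicate 2 in 34 members (50.4% of all tested genes), and CD63 low replicate 2 was above replicate 1 in 36 (6627 of the 13241 tested genes). In 30 of the 45 members (66.7%) both held, a pattern found in 30.5% of all tested genes and in 25 of the 81 other ER genes (30.9%). All 3 HSP70 and HSP90 chaperones, both lectin chaperones and 7 of 8 disulfide isomerases had it, and none of the 3 oxidases did. Hspa5 was 1.31-fold and 1.56-fold higher in those libraries than in their partners, Hsp90b1 1.39-fold and 1.48-fold, Dnajc10 1.33-fold and 1.56-fold and Sel1l 1.62-fold and 1.41-fold. Xbp1, Selenok, Txndc12, Manf and Mbtps2 went the other way in both groups.

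Genes with an ERSE match showed this shape in 8 of 10 cases, and Ero1lb and Derl3 were the others. Of the 30 members whose window held no ERSE, 19 showed it. The median log2 ratio of CD63 low replicate 2 over 1 was 0.39 in the former and 0.28 in the latter, and that of CD63 high replicate 1 over 2 was 0.23 and 0.18. Between the groups the ERSE set was centred on -0.04, and 9 of its 10 members had overlapping groups. So did 15 of the 30 members without an ERSE, and of all tested genes 46.0% did not overlap. The 7 tested genes with an ERSE that are not members showed the shape in 2 cases. These counts describe 4 libraries and were not tested.

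**Figure D3:**
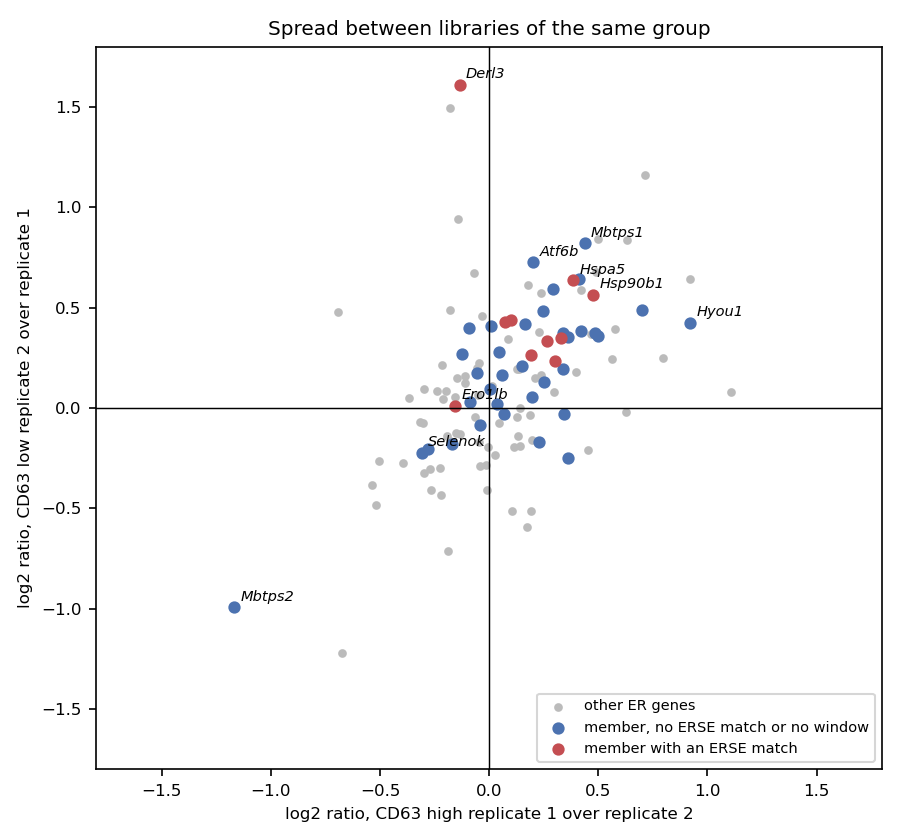
Log2 ratio of CD63 high replicate 1 over replicate 2 (horizontal) against that of CD63 low replicate 2 over replicate 1 (vertical) for members with an ERSE match (red), the other members (blue) and 79 of the 81 tested other ER genes (grey, 2 not drawn). The upper right field, where both ratios are above 0, holds 30 of the 45 members, among them Hspa5, Hsp90b1 and Hyou1, while Mbtps2 lies at the lower left.

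Some library properties moved with this pattern. CD63 high replicate 1 and CD63 low replicate 2 had more counts than their partners (30436845 against 29249270 and 35003307 against 32953539) and a smaller share of insulin transcripts (49.0% against 52.2% and 48.7% against 56.4%). The members took 2.73% and 2.97% of the counts that were not insulin in these libraries, and 2.39% and 2.37% in CD63 high replicate 2 and CD63 low replicate 1. Of the marker sums given above for each library, that of duct cells was higher in both of these libraries than in their partners. Those of gamma and beta cells were lower in both. The acinar, alpha, delta and macrophage sums were lower in CD63 high replicate 1 than in replicate 2 and higher in CD63 low replicate 2 than in replicate 1. The part of depth, composition or other cells in the pattern was not tested.

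Levels of different genes were set side by side only per kilobase of exon. On that scale Pdia3, Hspa5 and P4hb led, with means over the 4 libraries of 401, 399 and 364 CPM per kilobase. Hspa5 ranged from 313 to 488 and P4hb from 297 to 415 CPM per kilobase, so these 3 are not in the same order in every library. Sdf2l1 (311), Fkbp2 (287), Calr (234), Pdia6 (212) and Hsp90b1 (192) came next. Of the sensors, Atf6b was at 23.2, Atf6 at 3.92 and Ern1 at 3.41 CPM per kilobase, and the transcription factor Xbp1 was at 141. Derl3 (1.76) and Mbtps2 (0.357) were the lowest of the 45. Ero1lb, at 105 CPM per kilobase, lay above Ero1l, at 9.36, in all libraries.

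**Figure D4:**
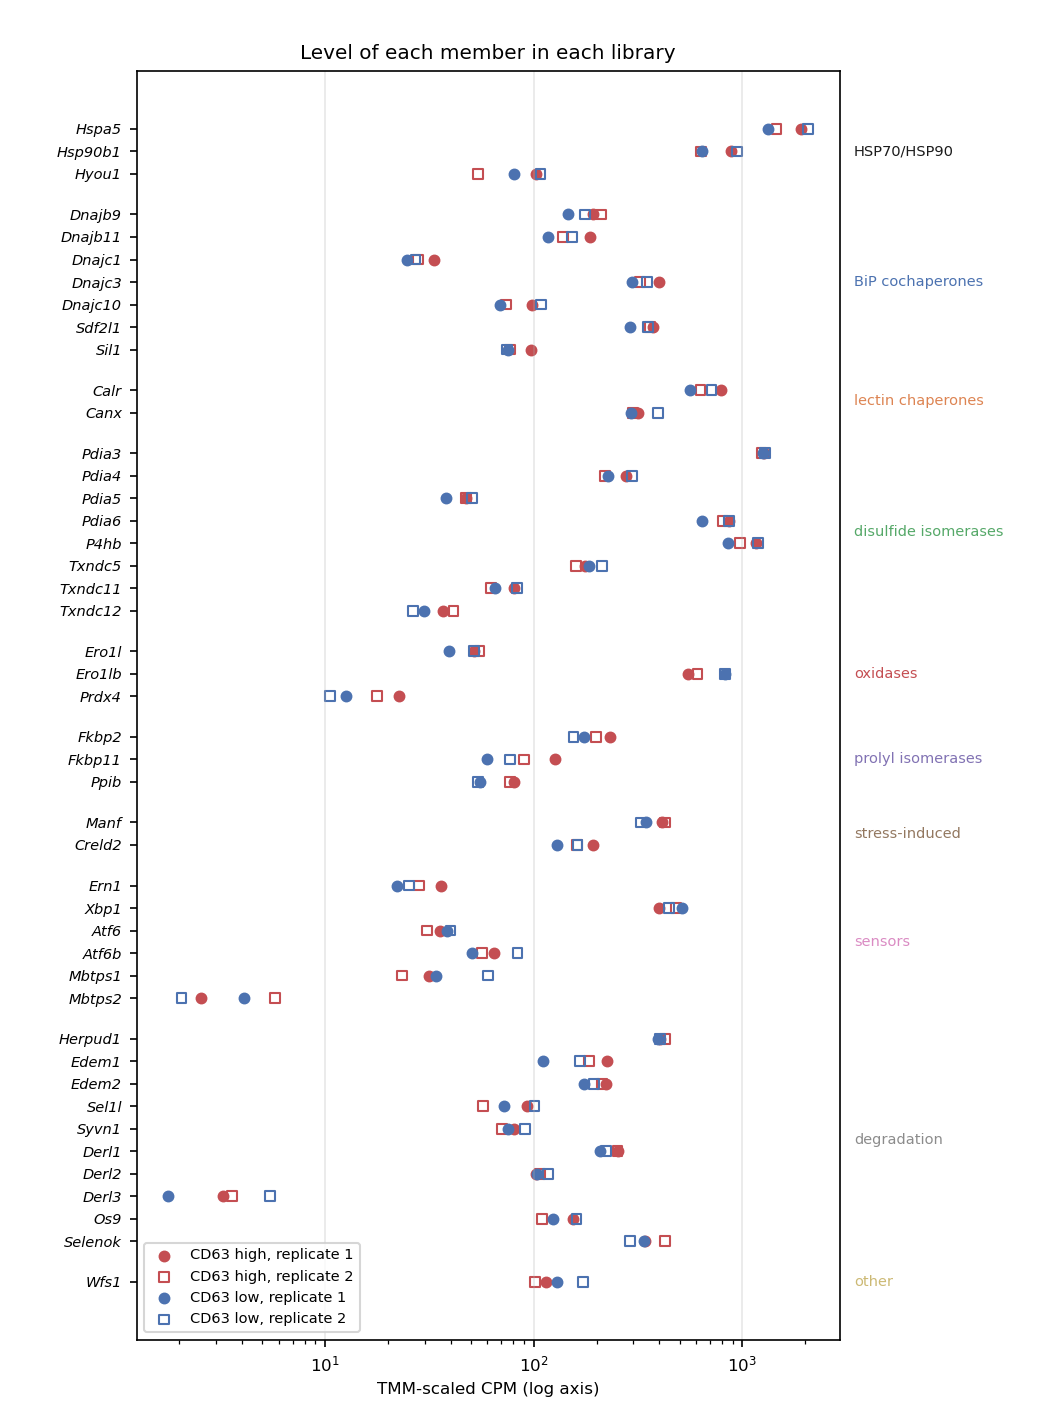
TMM-scaled CPM (log axis, not divided by length) of the 45 members in the 2 CD63 high libraries (red) and the 2 CD63 low libraries (blue), with replicate 1 filled and replicate 2 open, grouped by role. For 25 of the 45 members the groups overlap, as for Hspa5 between 1325 and 2062 CPM, while Prdx4, Ppib and Ero1lb separate by colour.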

How the data were processed

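The authors deposited raw counts per gene name for each of the 4 libraries. Per the file headers these were made with featureCounts 1.6.2 in paired-end mode, without strand or multi-mapping options, with the gene models of Cell Ranger's mm10 reference, version 3.0.0, and the submitters' processing notes also name STAR 2.6.0c, FastQC and Cell Ranger. Per the labels' protocols, cDNA was made with a low-input SMARTer kit, and they name no molecular identifiers, so PCR copies may count as reads. Reads shared by overlapping genes, on either strand, are left out under such settings.

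Groups follow the sample titles. Genes were kept with filterByExpr (minimum count 10, total 15), scaled by TMM and fitted with edgeR 4.0.16 (R 4.3.3; glmQLFit, glmQLFTest), with the group as the only term. The SE of a fold change is its absolute log2 value divided by the root of the F statistic. The biological coefficient of variation was 0.264. DESeq2 1.42.0, limma 3.58.1 (voom), other scalings and filters, a replicate block and leaving out each library were alternatives. Within groups, counts differed by 39.8 (CD63 high) and 78.6 (CD63 low) times sampling noise (chi-square per degree of freedom), so none was treated as a repeat deposit of another, which does not show that they came from separate animals or sorts. The members and lists were chosen with earlier results of these data known. Every member is given; fuller statistics went to the 2 with the smallest p in each role list, and values per library to the highest per kilobase. Further ER genes were named when among the 3 smallest p of their list; of these, the 4 under an unadjusted p of 0.05 are described, and the others, like the further details on members, were picked after their values were seen.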

Additional observations from a re-analysis of the deposited data

How the results depend on the processing

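The number of genes called moved from 369 to 67 with library totals as the only scaling, 940 without a filter on low counts and 686 with DESeq2, and it was 450 to 769 with 1 library left out (769 without CD63 low replicate 1). Calls among the members stayed at 0 higher and 0 lower with RLE size factors, library totals, a minimum mean of 1 CPM, DESeq2, limma-voom, the robust fit and the replicate block. Without a filter 1 member, Mbtps1, was called lower, and 1 other ER gene, Ppic, higher. Ppic did not pass the filter of the main fit. It had 8 and 27 counts in the CD63 high libraries and 0 in both CD63 low libraries. With 1 library left out, 0 to 1 members were called higher (Edem1), 0 to 1 lower (Mbtps1) and 0 to 1 other ER genes (Ppic, without CD63 high replicate 1). In these fits the lone library of a group is assumed to vary like the other group. The median log2 fold change of the members was -0.02 to 0.30 with 1 library left out.

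Same-numbered libraries did not deviate together (correlation -0.101 across genes). With 2 libraries per group this cannot show whether the numbers stand for a pairing, and the labels do not say. With the replicate block 616 genes were called, with 0 members, and the log2 fold change of Hspa5 was 0.0094. A pairing of CD63 high replicate 1 with CD63 low replicate 2, added after seeing the data, called 942 genes, 3 members higher, 2 members lower and 1 other ER gene.

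Of 24 named members 17 kept their sign in all 12 alternatives, which is no sign of stability for those whose groups do not overlap. That of Hspa5 was 0.0061 with the mean CPM minimum and 0.009 with limma-voom. With 1 library left out the log2 fold changes of those that turned ranged from -0.30 to 0.36 (Hspa5), -0.32 to 0.26 (Hsp90b1), -0.80 to 0.12 (Hyou1), -0.0133 to 0.36 (Calr), -0.36 to 0.09 (Canx), -0.0413 to 0.0027 (Pdia3) and -0.27 to 0.0152 (Xbp1). Depth bears most on Mbtps2 and Derl3, the members with the fewest counts, whose SE was 0.51 and 0.52.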
